A study of Mus musculus with 1 sample.

Results

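NF-κB feedback genes were followed in single cells of untreated mouse gastric organoids. The 9 genes, Nfkbia, Nfkbiz, Tnfaip3, Nfkb1, Nfkb2, Relb, Birc3, Icam1 and Bcl3, were chosen by name and all 9 were among the 32285 genes counted. They were read in the 1892 of 1991 barcodes in which 500 or more genes were seen and no more than 20% of gene UMIs came from the mitochondrial genome. A UMI (unique molecular identifier) stands for 1 captured transcript. The culture came from stomach, had the wild type genotype and received no treatment. Organoids are balls of epithelium grown in a gel. These were harvested on day 7 and taken apart for 30 min at 37 °C in trypsin-EDTA (0.05%). There was 1 library, so no difference was tested, cells are not replicates, and every interval covers counting error only.

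NF-κB is a family of dimeric transcription factors held in the cytoplasm by inhibitor proteins until a signal, such as tumour necrosis factor or a bacterial product, leads to the inhibitors' destruction. Once in the nucleus it switches on inflammatory genes and also the genes for its own inhibitors, which return the system to rest. In surface epithelia such as that of the stomach this circuit is known for governing the release of chemokines that call in neutrophils. Among the 9 genes, Nfkbia encodes IκBα, the inhibitor that recaptures NF-κB. Nfkbiz encodes IκBζ, a nuclear relative that works as a cofactor for a subset of targets, and Bcl3 encodes another nuclear relative. Tnfaip3 encodes a ubiquitin-editing enzyme that shuts signalling off upstream, and Birc3 encodes a ubiquitin ligase of the tumour necrosis factor receptor complex. Nfkb1, Nfkb2 and Relb encode subunits of the factor itself. Icam1 encodes an adhesion molecule that binds leukocyte integrins.

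Promoter sequence shows the letters through which such feedback is known to run. The windows reached from 250 bases before to 50 bases after a transcription start, were taken from RefSeq (GRCm38.p6), and were searched on both strands for the κB consensus site and for GGAANNTCC, which can overlap each other. Of the 9 genes 6 had a window, all but Nfkbiz, Nfkb1 and Relb, and 5 of these 6 held a match to either motif, all but Birc3. Over all 32851 windows 10.7% held a match to either (8.46% the κB consensus, 4.26% GGAANNTCC), and over all 27025 genes 12.1% did. A match is a description of the letters and not evidence of binding. The stretches below are shown for Nfkbia and Tnfaip3, which varied together over cells, for Nfkb2 and Icam1 as contrasts, and for Cxcl1 and Cxcl2, the chemokine genes that varied most like Nfkbia. Each is written 5′ to 3′ along the gene's strand, and capitals mark the matched bases. The Nfkbia stretch lies at chr12:55492655-55492837, minus strand, and Tnfaip3 at chr10:19015411-19015547, minus strand. The others lie on the plus strand, Nfkb2 at chr19:46304686-46304736, Icam1 at chr9:21015775-21015807, Cxcl1 at chr5:90891162-90891196 and Cxcl2 at chr5:90903790-90903824.
Nfkbia: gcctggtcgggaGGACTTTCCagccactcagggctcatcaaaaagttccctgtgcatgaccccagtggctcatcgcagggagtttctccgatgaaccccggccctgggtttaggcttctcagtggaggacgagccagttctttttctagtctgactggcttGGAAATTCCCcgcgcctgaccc
Tnfaip3: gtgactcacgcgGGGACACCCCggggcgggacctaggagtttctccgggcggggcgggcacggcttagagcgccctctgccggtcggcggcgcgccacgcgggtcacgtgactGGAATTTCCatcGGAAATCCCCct
Nfkb2: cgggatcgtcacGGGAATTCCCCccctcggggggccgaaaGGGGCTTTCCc
Icam1: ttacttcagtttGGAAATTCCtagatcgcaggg
Cxcl1: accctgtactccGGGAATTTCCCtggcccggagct
Cxcl2: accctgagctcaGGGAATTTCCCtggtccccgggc

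Nfkbia held 2 separate matched stretches in its window and Tnfaip3 held 3, each of them upstream of the RefSeq start. Nfkb2 held 4 over the windows of 3 alternative starts, each upstream of at least 1 start, and the stretch shown is that of the first start. RefSeq and GENCODE place some starts differently, and the Tnfaip3 and Nfkb2 stretches shown lie inside the GENCODE gene spans given below. Icam1 held 1. Bcl3 held 1, past the start. Cxcl1 and Cxcl2, related genes, carry the same 11 matched bases. Another 8 genes with patterns like the members were picked by hand, Cxcl1, Cxcl2, Cxcl5, Ccl20, Tnf, Ier3, Lcn2 and Tnfaip2. Of these 7 had a window and 6 of the 7 held a match, all but Lcn2. They are not a full tally of the genes most like the members.

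In the annotation (GENCODE M21, GRCm38) all 9 genes are protein coding. Nfkbia lies at chr12:55489410-55492647 on the minus strand, Nfkbiz at chr16:55811375-55838899 on the minus strand and Tnfaip3 at chr10:19000910-19015657 on the minus strand. Nfkb1 is at chr3:135584655-135691547 (minus), Nfkb2 at chr19:46304320-46312385 (plus) and Relb at chr7:19606217-19629438 (minus). Birc3 is at chr9:7848699-7873186 (minus), Icam1 at chr9:21015985-21028817 (plus) and Bcl3 at chr7:19808462-19822770 (minus). Nfkb2 overlaps AC114539.1 (144 UMIs in all barcodes) and Psd (11 UMIs) on the opposite strand. Icam1 overlaps the antisense gene Gm47079 (11 UMIs), and Bcl3 overlaps the antisense genes Gm16174 (64 UMIs) and Gm16175 (0 UMIs). Nfkb1 overlaps Gm43430 on its own strand, which was not among the genes counted. The strand setting of the counting is not given in the sources used here, so the values of Nfkb2, Icam1 and Bcl3 could include reads of these neighbours.

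The 1892 cells held 20118334 gene UMIs, a median of 8512.5 per cell (range 890 to 47183), with a median of 2220 genes and a median mitochondrial share of 4.07%. Epithelial markers were widely detected, with Krt18 (a UMI in 1884 cells), Krt8 (1852 cells), Epcam (1827 cells) and Cdh1 (986 cells). Defining markers of other cell types were at or near 0. Ptprc, the pan-leukocyte marker, and Cd3e had 1 UMI each, and Itgam and S100a8 had 0. Csf1r had 13 UMIs and Cd68, which is not confined to immune cells, had 196. The fibroblast genes Col1a1, Col1a2, Pdgfra and Dcn had 0 to 5 UMIs and the endothelial genes Pecam1, Cdh5 and Kdr 0 to 3. For a gene at 0 UMIs, the limit is a UMI in up to 0.159% of cells. Cells carried 1 of 2 multiplexing tags, CMO301 (1062 cells) or CMO302 (830 cells). The labels do not say what the tags separated, so the tags show only how far a value moves within the library.

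The 9 genes fell into a pair of abundant IκB-family genes and 7 sparse genes. Levels are given as UMIs per 1000000 gene UMIs (CPM) summed over cells, a scale on which 3′ counts do not grow with transcript length, with 95% exact Poisson intervals. Nfkbia had 4068 UMIs, or 202 CPM (196 to 209), and stood at rank 571 of all genes. Nfkbiz had 2746 UMIs, or 136 CPM (131 to 142), at rank 815. Together they gave 85.9% of the 7934 UMIs of the 9 genes, Nfkbia alone 51.3%. At least 1 of the 9 was seen in 1598 cells (84.5%) and none in 294. The median cell had UMIs of 2 of the genes, and the most seen in 1 cell was 6, in 8 cells.

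**Figure D1:**
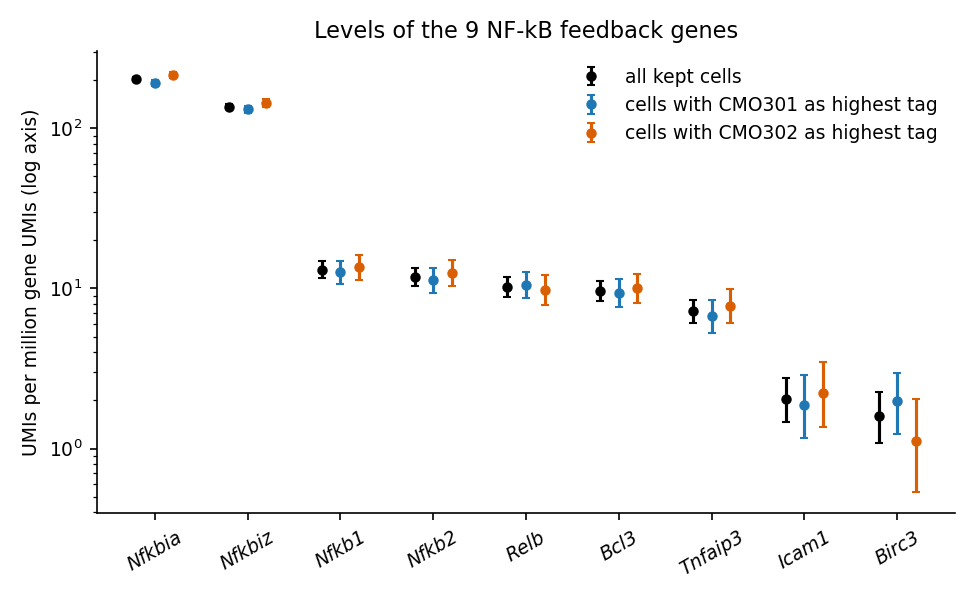
Level of each of the 9 genes on a log axis in CPM, with 95% Poisson intervals, in all cells and in the cells of each multiplexing tag. Nfkbia and Nfkbiz stand above 100, Nfkb1, Nfkb2, Relb, Bcl3 and Tnfaip3 lie between 6 and 14, and Icam1 and Birc3 lie between 1 and 3.

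The subunit genes followed far below these. Nfkb1 had 263 UMIs (13.1 CPM, 11.5 to 14.8), Nfkb2 238 (11.8 CPM, 10.4 to 13.4) and Relb 206 (10.2 CPM, 8.89 to 11.7). Bcl3, at 195 UMIs (9.69 CPM, 8.38 to 11.2), was next, and Tnfaip3 had 145 UMIs (7.21 CPM, 6.08 to 8.48). Icam1 had 41 UMIs (2.04 CPM, 1.46 to 2.76) and Birc3 32 (1.59 CPM, 1.09 to 2.25). In the order of levels, the intervals of the neighbours Nfkb1 and Nfkb2, Nfkb2 and Relb, Relb and Bcl3, Bcl3 and Tnfaip3, and Icam1 and Birc3 overlapped. Those of Nfkbia and Nfkbiz, Nfkbiz and Nfkb1, and Tnfaip3 and Icam1 did not.

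The share of cells with a UMI followed the same broad order. It was 65.6% for Nfkbia (exact Clopper-Pearson interval 63.5 to 67.8) and 54.5% for Nfkbiz (52.3 to 56.8). It was 12.2% for Nfkb1, 11.3% for Nfkb2, 9.83% for Relb and 9.14% for Bcl3. For Tnfaip3 it was 6.24%, for Icam1 2.01% and for Birc3 1.64%. After each cell was thinned to 3000 UMIs, which kept 1835 cells and left out 57, the shares were 36.6% for Nfkbia and 27.8% for Nfkbiz. The other 7 then ranged from 0.490% (Birc3) to 4.14% (Nfkb1). Free RNA in droplets can add UMIs, and no cell type in the library is known to lack these genes, so a background share was not measured. In the 99 barcodes removed by the filter, which held 118582 gene UMIs, Nfkbia had 15 UMIs (126 CPM) and Nfkbiz 27 (228 CPM).

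Nfkbia and Nfkbiz were also unevenly spread. Of the cells, 461 had 1 Nfkbia UMI, 265 had 2 and 516 had 3 or more, up to 31 in 1 cell. Nfkbiz had 444 cells with 1 UMI, 238 with 2 and 350 with 3 or more, up to 26. The 10% of cells with the most UMIs of the gene held 45.2% of Nfkbia UMIs and 47.6% of Nfkbiz UMIs. Spread beyond counting was measured as the variance of depth-adjusted residuals, whose median over the 8653 genes with at least 100 UMIs was 1.06. Nfkbia, at 3.98, stood at percentile 98.8 of these genes, Nfkbiz, at 2.63, at percentile 97.6 and Tnfaip3, at 1.40, at percentile 90.5. The variance was 1.11 for Birc3, 1.08 for Icam1, 1.04 for both Nfkb2 and Relb, and 0.998 for Bcl3. Nfkb1, at 0.915, stood at percentile 3.33. Nfkbia, Nfkbiz and Tnfaip3 varied more between cells than the 3 subunit genes did, on a scale where sparse genes have less room to vary.

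Nfkbia and Nfkbiz moved by less than 1.5-fold by tag, depth, cycle phase or mitochondrial share, while some sparse genes moved more. Nfkbia was at 192 CPM (184 to 200) in cells with the first tag and 215 CPM (206 to 225) in cells with the second. Nfkbiz was at 131 CPM (124 to 138) and 143 CPM (136 to 151). The intervals of the other 7 genes overlapped between tags, with Birc3 at 22 against 10 UMIs. By depth, in 3 groups of cells from shallow to deep, Nfkbia was at 230, 201 and 195 CPM and Nfkbiz at 128, 127 and 143 CPM. Nfkb1 was at 8.19 (5.35 to 12), 11.4 and 15.2 CPM (13 to 17.7) in the same order, higher in deep than in shallow cells. Tnfaip3 followed no such order, at 9.14, 4.71 and 7.88 CPM. In cells called S or G2/M from cell cycle scores Nfkbiz was at 113 CPM, against 144 CPM in cells called G1, and Nfkbia was at 190 against 206 CPM. From the group of cells with the lowest mitochondrial share to that with the highest, Nfkbiz went from 121 to 138 and 157 CPM while Nfkbia went from 213 to 208 and 181 CPM. Tnfaip3 was at 7.14 CPM in the lowest, 9.46 CPM (7.29 to 12.1) in the middle and 4.6 CPM (3 to 6.74) in the highest of these groups. The part of depth, cycle or mitochondrial share in these levels was not tested.

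Covariation over cells was seen among Nfkbia, Nfkbiz and Tnfaip3. Pearson's r of depth-adjusted residuals over 1892 cells was 0.36 for Nfkbia with Nfkbiz, 0.24 for Nfkbiz with Tnfaip3 and 0.22 for Nfkbia with Tnfaip3. These 3 of 36 pairs reached r of at least 0.1. Over all pairs of genes with at least 100 UMIs, a set without Icam1 and Birc3, 0.613% reached this mark. By Spearman's rho of thinned counts 1 pair reached it, Nfkbia with Nfkbiz (0.13), while Nfkbia with Tnfaip3 was at 0.069 and Nfkbiz with Tnfaip3 at 0.062. In the 1129 cells without a UMI of Cxcl1, Cxcl2, Cxcl5 or Tnf the same pair alone reached it, at 0.12. The next pairs were Nfkbia with Birc3 (0.093) and with Icam1 (0.068), and the lowest was Nfkb1 with Bcl3 (-0.045). Against the sum of the other 8 genes r was 0.35 for Nfkbia, 0.31 for Nfkbiz and 0.22 for Tnfaip3, and 0.030 to 0.053 for the other 6. All points share 1 library, its free RNA and its range of depth, and for the sparse genes a weak r is no finding in either direction.

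**Figure D2:**
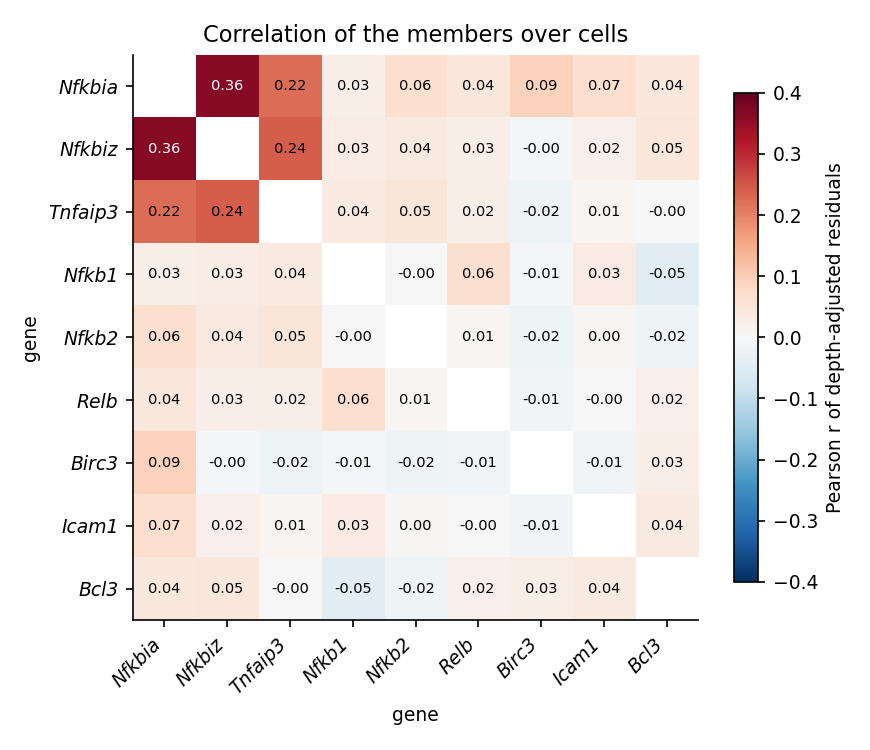
Pearson's r of depth-adjusted residuals over 1892 cells for each pair of the 9 genes, shown as colour and number. On this measure only the block of Nfkbia, Nfkbiz and Tnfaip3 reaches 0.1, at 0.22 to 0.36.

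Counts of cells gave a broader picture on few cells. At 3000 UMIs per cell, Nfkbia was seen in 44.1% of cells with a Nfkbiz UMI and in 33.7% of cells without one. It was seen in 60.0% of the 35 cells with a Tnfaip3 UMI, against 36.1% of the other cells. Nfkbiz was seen in 42.9% of those 35 cells and in 27.5% of the others. Gaps of like size were seen for pairs whose r was below 0.1. Nfkbia was seen in 48.7% of 76 cells with a Nfkb1 UMI against 36% of the others, and in 7 of 13 cells with an Icam1 UMI. Nfkbiz was seen in 37.3% of 59 cells with a Nfkb2 UMI against 27.5%. Other gaps ran the opposite way. Nfkbia was seen in 30.5% of those 59 cells against 36.8%, and Nfkbiz in 21.7% of 60 cells with a Bcl3 UMI against 28% and in 3 of 13 cells with an Icam1 UMI. The counts therefore do not single out the trio. The r of Nfkbia with Nfkbiz was above 0.1 in each of 6 cell clusters, at 0.49, 0.24, 0.26, 0.37, 0.59 and 0.55 in clusters 1 to 6. The pairs with Tnfaip3 were less even. In the same order Nfkbia with Tnfaip3 had an r of 0.38, 0.11, 0.16, 0.063, 0.11 and 0.30, and Nfkbiz with Tnfaip3 0.39, 0.11, 0.019, 0.20, 0.039 and -0.0097. Without cluster 1 the r of Nfkbia with Tnfaip3 was 0.12 and that of Nfkbiz with Tnfaip3 0.12. Residuals of Nfkbia and Nfkbiz were lower in cells with a higher share of ribosomal protein UMIs (r of -0.15 and -0.20), and the part of that share in their covariation was not tested.

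Nfkbia and Nfkbiz leaned toward different groups of genes, a difference that was not tested. The sum of the neutrophil chemokines Cxcl1, Cxcl2 and Cxcl5 had an r of 0.49 with Nfkbia and 0.25 with Nfkbiz. The sum of 16 immediate early genes, which are known to be induced quickly by many stimuli, tissue dissociation among them, had an r of 0.18 with Nfkbia and 0.37 with Nfkbiz. The list holds mostly transcription factors such as Fos and Egr1, and also the phosphatase gene Dusp1, Btg2 and the heat shock chaperone genes Hspa1a and Hspa1b. The chemokine and immediate early sums had an r of only 0.023 with each other. In cells of the first and second tag, Nfkbia had an r of 0.49 and 0.52 with the chemokines, and Nfkbiz had an r of 0.35 and 0.39 with the immediate early genes. Without the 20 cells highest in Nfkbia, the r of Nfkbia with the chemokines was 0.38. Every cell went through the same trypsin step, so what arose in the culture and what arose in that step cannot be told apart.

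**Figure D3:**
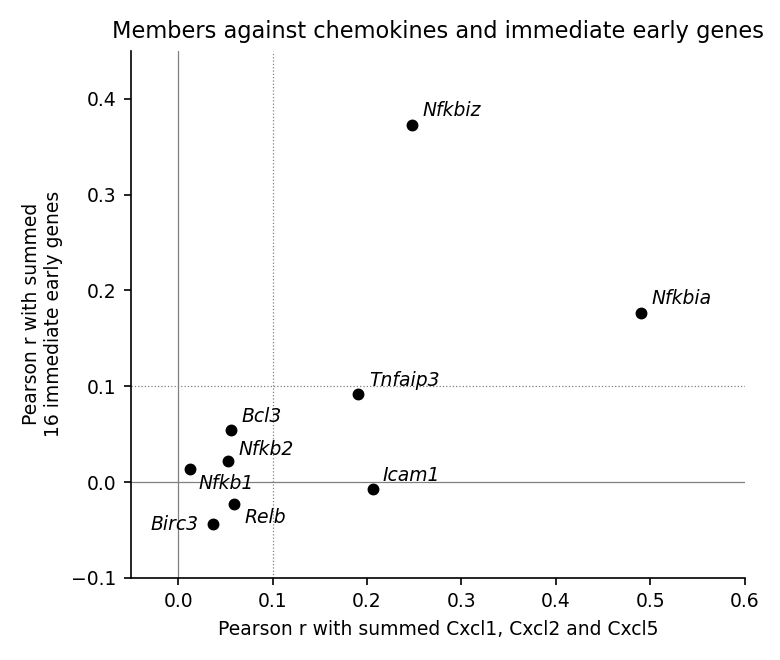
Each of the 9 genes by its Pearson's r over 1892 cells with the summed chemokines Cxcl1, Cxcl2 and Cxcl5 (horizontal) and with 16 summed immediate early genes (vertical), with dotted lines at 0.1. Nfkbia lies far to the right (0.49, 0.18), Nfkbiz lies highest (0.25, 0.37), and Tnfaip3 and Icam1 pass 0.1 on the chemokine axis alone.

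Tnfaip3 and Icam1 shared the chemokine side. Tnfaip3 had an r of 0.19 with the chemokines and 0.091 with the immediate early genes. Icam1 had an r of 0.21 and -0.0076, which rests on 41 UMIs and was 0.098 in the first tag's cells and 0.28 in the second's. For Tnfaip3 the r with the chemokines was 0.12 both without cluster 1 and without the 20 cells highest in Nfkbia. Its r with the immediate early genes passed 0.1 in the second tag's cells (0.112) and without cluster 6 (0.106). It was 0.076 in the first tag's cells and 0.039 without cluster 1. The gap between its r with the chemokines and with the immediate early genes was not tested. Bcl3, Relb, Nfkb2, Birc3 and Nfkb1 had an r between 0.013 and 0.059 with the chemokines and between -0.043 and 0.054 with the immediate early genes.

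Outside the 9 members themselves, the 3 genes most like each member were found among 6677 genes with at least 200 UMIs. For Nfkbia they were Cxcl1 (r = 0.55), Cxcl2 (0.43) and Tnf (0.38), the gene of a cytokine that itself activates NF-κB. For Nfkbiz they were Tnf (0.31), Egr1 (0.31) and Klf4 (0.30), closely followed by Cxcl1 (0.29), so Tnf and Cxcl1 stood near both genes. For Tnfaip3 they were Cxcl1 (0.21), Tnf (0.21) and Cxcl2 (0.18). For Icam1 they were Cxcl5 (0.25), Lcn2 (0.21), which encodes an iron-scavenging antimicrobial protein, and Tnfaip2 (0.18). Of the genes with at least 100 UMIs, r of at least 0.1 was reached by 1.24% with Nfkbia, 2.81% with Nfkbiz, 0.37% with Tnfaip3 and 0.3% with Icam1. The share was 0.139% with Nfkb1, 0.0693% with Relb and with Birc3, and 0.0462% with Nfkb2 and with Bcl3. The nearest of the 6677 genes were Eva1b, Rsrc2 and Rtf1 for Nfkb1 (0.11 to 0.12), 2310010J17Rik, Gstt2 and Fcho1 for Nfkb2 (0.10 to 0.14) and Sh3bgrl3, Mxd1 and Basp1 for Relb (0.11 to 0.13). For Birc3 they were Bcas3, Pcyox1 and Nom1 (0.099 to 0.13) and for Bcl3 Trim8, Tmem173 and Ly6a (each 0.11 or 0.10).

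For the summed 9 genes the nearest 10 were Cxcl1 (r = 0.46), Tnf (0.40), Cxcl2 (0.39), Cxcl5 (0.29), Ier3 (0.28), Tnfaip2 (0.27), Lcn2 (0.27), 1110008P14Rik (0.24), Irf1 (0.21) and Rnd3 (0.20). Residuals were summed without scaling, so Nfkbia and Nfkbiz, with the largest variances (3.98 and 2.63), weigh most in this sum, here and below. Lcn2 and 1110008P14Rik are neighbours on chromosome 2, on the same strand and 2694 bases apart with no gene between, and had an r of 0.43 with each other. The 20 genes with the lowest r with the sum were all ribosomal protein genes.

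The size of these links can be read from levels in 3 groups of 632, 630 and 630 cells ranked by Nfkbia residual within 10 bins of depth, whose median depths were 8449.5, 8548 and 8509 UMIs. From the low to the middle and high group Nfkbiz was at 88.6, 112 and 207 CPM, 2.34-fold from low to high. Tnfaip3 was at 3.54, 5.35 and 12.7 CPM, 3.58-fold (24 against 86 UMIs). Icam1 was at 1.33, 1.53 and 3.24 CPM, 2.44-fold on 9 against 22 UMIs, with overlapping intervals. These were 3 of the other 8 members at least 1.5-fold higher, against 2% of all genes with at least 100 UMIs, and 0 at least 1.5-fold lower, against 0.774%. Icam1 and Birc3 had fewer than 100 UMIs, so such shares, here and below, hold no genes as sparse as these. Relb (1.41-fold), Nfkb2 (1.27-fold), Bcl3 (1.25-fold), Nfkb1 (1.14-fold) and Birc3 (0.855-fold) lay within 1.5-fold. Without cluster 1 the Tnfaip3 ratio was 2.19.

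Cxcl1, Cxcl2, Cxcl5 and Ccl20 had steeper steps between these groups than the members did, and Cxcl16 did not (1.39-fold). Cxcl2 was at 7.08, 6.88 and 115 CPM (16.2-fold from low to high), Cxcl1 at 13.9, 24.5 and 119 CPM (8.60-fold) and Cxcl5 at 24.3, 22.6 and 167 CPM (6.85-fold). Ccl20, which attracts dendritic cells and lymphocytes, had 5 UMIs in the low and 83 in the high group. Tnf was at 19.8, 23.5 and 69.3 CPM (3.51-fold). Lcn2 was at 129, 76.0 and 291 CPM, lowest in the middle group (2.26-fold from low to high). For Cxcl2 and Cxcl5 the step lay between the middle and the high group alone. Rela, the main activating subunit gene, was 1.15-fold and the summed immediate early genes were 1.21-fold higher (7536 to 9102 CPM). Within tags the ratio of Cxcl5 was 4.49 and 11.4 and that of Lcn2 1.30 and 4.20. Without cluster 1 it was 9.72 for Cxcl2, 3.24 for Cxcl5 and 8.10 for Ccl20. The median ribosomal protein share was 36.5%, 35.9% and 34.6% from low to high, and its part in the ratios was not tested. Cxcl1 and Cxcl2 are close relatives, so the counting could have split or dropped reads they share.

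Ranked by Nfkbiz, cells differed more in immediate early genes and less in chemokines than when ranked by Nfkbia, and this contrast was not tested. Nfkbia was at 141, 166 and 300 CPM from the low to the high group (2.14-fold) and Tnfaip3 at 3.21, 5.97 and 12.5 CPM (3.88-fold). Bcl3 was at 6.14, 11.2 and 11.9 CPM (1.93-fold) and Nfkb1 at 9.06, 16.2 and 14.1 CPM (1.56-fold). The low group was below the middle one for both genes, and the middle and high groups had overlapping intervals. Nfkb2 was 1.48-fold, Icam1 1.29-fold and Relb 1.08-fold higher, and Birc3 was 0.646-fold. Of the other 8 members 4 were thus at least 1.5-fold higher and 1 (Birc3, on 11 against 7 UMIs) at least 1.5-fold lower, against 4.35% and 1.31% of all genes. The Nfkb1 ratio was 1.20 in the first tag's cells, 2.22 in the second's and 1.42 without cluster 1, so its place past 1.5 did not hold throughout. Egr1 was at 772, 987 and 1255 CPM (1.63-fold), Klf4 was 1.77-fold and Fosb 1.68-fold higher, and the immediate early sum went from 6823 to 9906 CPM (1.45-fold). Cxcl1 was 3.19-fold, Cxcl2 3.97-fold and Tnf 2.61-fold higher. The Cxcl2 ratio was 8.07 in the second tag's cells and 2.30 without the 20 cells highest in Nfkbia. The median mitochondrial share was 3.67%, 4.09% and 4.42%, and the ribosomal share 36.8%, 35.8% and 34.8%, from low to high. Their part was not tested.

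**Figure D4:**
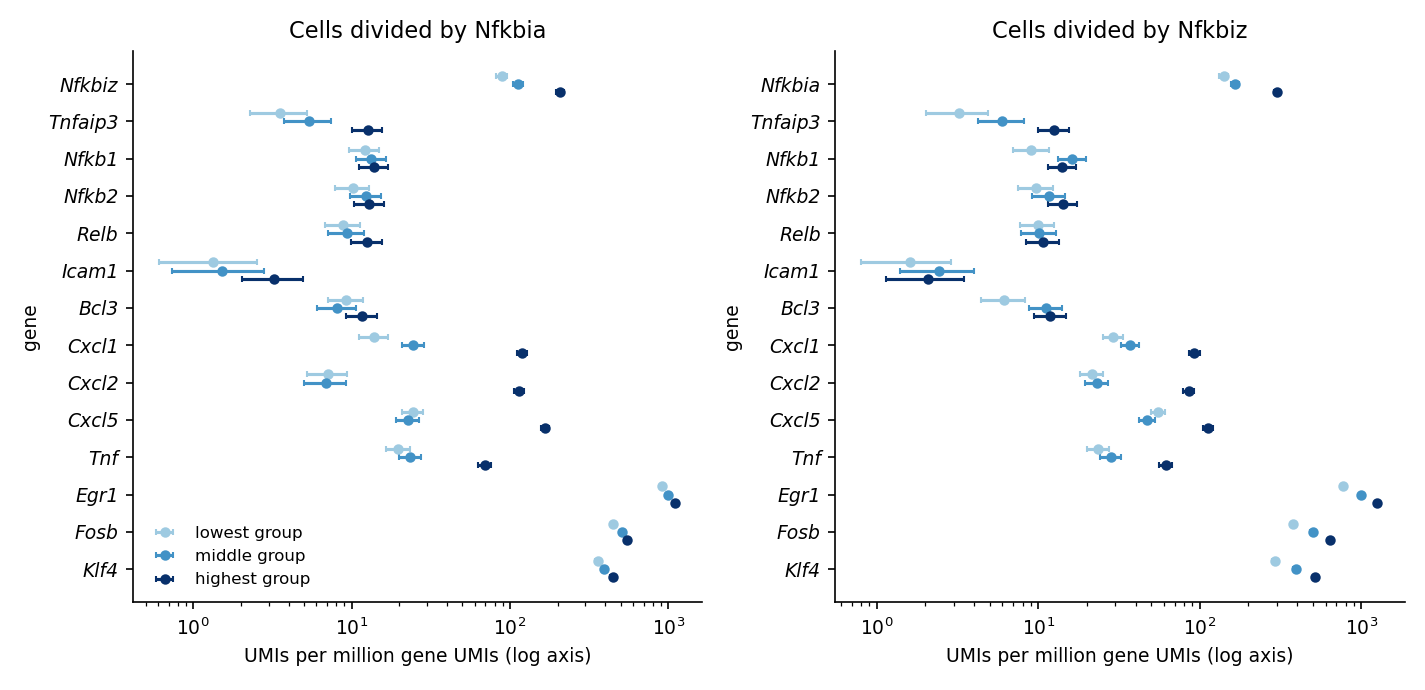
Levels in CPM (log axis, 95% Poisson intervals) of selected genes in the low, middle and high groups of cells ranked by Nfkbia (left) and by Nfkbiz (right) within 10 bins of depth. Cxcl2 spans 7.08 to 115 in the Nfkbia ranking, and Egr1 spans 772 to 1255 in the Nfkbiz ranking.

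Few cells held much of the chemokine RNA. The 20 cells with the highest Nfkbia residual had 11 to 31 Nfkbia UMIs each (median 18), and their 387 UMIs were 9.51% of all Nfkbia UMIs. Nfkbiz was seen in 17 of them, Cxcl1 in 18, Cxcl2, Cxcl5 and Tnf in 14 each and Tnfaip3 in 7. They held 30.5% of all Cxcl2 UMIs (266), 19.3% of Cxcl1 UMIs (205) and 12.4% of Cxcl5 UMIs (179). They lay in clusters 1 to 4 (8, 8, 2 and 2 cells), 10 carried the first tag, and 0 were called doublets. Their depth was 4698 to 23063 UMIs (median 10685). Chemokine expression itself was narrow. The 20 cells with the most UMIs of a gene held 55.7% of Cxcl2, 54.8% of Cxcl5, 29.6% of Cxcl1 and 17.0% of Tnf UMIs, and Cxcl2 was seen in 160 cells in all.

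Other genes of the pathway were read from lists by role. Each count is of genes with at least 100 UMIs with r of at least 0.1 with the summed 9 genes, which 1.7% of all such genes reached, with a median r of 0.017 over all genes. No listed gene had an r of -0.1 or below. Of 10 receptors tested of 24 listed 0 reached it (median r 0.015), including Tnfrsf12a (108 CPM), Tnfrsf21 (73.3 CPM) and Tnfrsf1a (25.6 CPM). The highest r among receptors was 0.055 (Il17ra), before Tnfrsf1a (0.035) and Tlr4 (0.027). Of 3 ligands tested of 19 listed Tnf did (37.7 CPM, a UMI in 447 cells), while Il18 (25.0 CPM) and Il33 (11.7 CPM) did not. Of 23 kinases, adaptors, subunits and inhibitors tested of 30 listed 2 reached it (median 0.028). These were Rel (38.8 CPM, r = 0.13), a subunit whose gene is itself a known NF-κB target, and Bcl10 (51.0 CPM, r = 0.12), an adaptor. Irak4, a kinase, was next at 0.088, and Tab2, an adaptor, had 44.2 CPM with an r of 0.0070. Rela was at 20.6 CPM with an r of 0.028.

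The next list held negative regulators and some other genes, Tnfaip2 among them. Of 17 tested of 20 listed 4 reached r of 0.1 (median 0.030). They were Ier3 (634 CPM), Tnfaip2 (180 CPM, r = 0.27), Zc3h12a (r = 0.18), which encodes an RNase that cuts inflammatory transcripts, and Zfp36 (134 CPM, r = 0.14), whose product speeds decay of such transcripts. Tax1bp1, a partner of the Tnfaip3 protein, was at 250.2 CPM with an r of 0.092. Of 8 chemokines tested of 16 listed 4 reached it (median 0.092), Cxcl1 (52.9 CPM), Cxcl2 (43.4 CPM), Cxcl5 (71.8 CPM) and Cxcl16 (59.8 CPM, r = 0.13). Of 16 other known targets tested of 30 listed 4 reached it (median 0.053), Lcn2 (166 CPM), Irf1 (27.1 CPM), Junb (556 CPM, r = 0.17) and Sdc4 (263 CPM, r = 0.14). Ccnd1, at 432 CPM, had an r of 0.005. Of 16 immediate early genes 8 reached it (median 0.11), with Egr1 (1004 CPM), Klf4 and Fosb highest at 0.19, 0.18 and 0.17. Fos (2338 CPM), Atf3 (1085 CPM) and Jund (1021 CPM) had the highest levels of that list.

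Cells were clustered without the 9 genes and without the listed pathway genes, and the 6 clusters were used only to lay out levels. They had 493, 474, 445, 312, 106 and 62 cells, with median depths of 10379, 6994.5, 6509, 12823, 11635.5 and 14365.5 UMIs. Their leading genes describe them, and Cxcl5 was not used to make them. Cluster 1 was led by Nav3, Fam107a, Cxcl5, Slit2 and Mgat4c, cluster 2 by Aox3, Scgb3a1, Mmp7, Tmem176a and Cited4, and cluster 3 by AC168977.1, 2610528A11Rik, Ndrg1, 1700084E18Rik and Gm39228. Cluster 4 was led by Ly6m, Sprr1a, Abcg1, Arhgap22 and Ahnak2. Cluster 5, led by Aspm, Knl1, Dlgap5, Cenpf and Hmmr, had 98.1% of cells called S or G2/M. Cluster 6, led by Cyba, Reg3g, Gm3776, Gsta2 and Gsta1, held 70 UMIs of Y-linked genes, against 0 to 7 in each other cluster. No cluster was given a cell type name.

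Nfkbia stood highest in cluster 1 and lowest in clusters 3 and 4 (0.800-fold and 0.808-fold the other cells). It was at 231, 220, 167, 170, 198 and 214 CPM in clusters 1 to 6. Nfkbiz was at 166, 94.0, 105, 167, 133 and 103 CPM, high in clusters 1 and 4. Tnfaip3 was at 10.4, 4.17, 3.51, 8.45, 3.42 and 11.8 CPM, and Bcl3 at 13.4, 7.81, 7.90, 7.51, 11.6 and 6.91 CPM. In cluster 1 against all other cells Tnfaip3 was 1.80-fold (conditional binomial interval 1.28 to 2.54), Bcl3 1.66-fold (1.23 to 2.22), Nfkbiz 1.34-fold (1.24 to 1.45) and Nfkbia 1.22-fold (1.14 to 1.30). With clustering at resolution 0.3, where the matching cluster had 1019 cells, Tnfaip3 was 1.12-fold and Bcl3 1.28-fold, under 1.5. Of the 9 genes 2 were at least 1.5-fold higher in cluster 1 and 1 (Birc3, on 7 UMIs) at least 1.5-fold lower, against 9.9% and 4.01% of all genes with at least 100 UMIs. In clusters 2 and 3 Tnfaip3 was 0.526-fold and 0.441-fold, and Nfkb1 0.630-fold and 0.536-fold. In these shallow clusters 4 and 3 of the 9 genes were at least 1.5-fold lower and 0 higher, against 23.4% and 24.1% of all genes lower and 1.33% and 3.07% higher. In cluster 4 none of the 9 passed 1.5-fold, against 6.21% of genes higher and 7.37% lower. In cluster 5 2 were lower, Tnfaip3 on 5 UMIs and Icam1 on 2 (0.655-fold, 0.0766 to 2.53), and 0 higher, against 5.78% and 11.4% of genes.

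**Figure D5:**
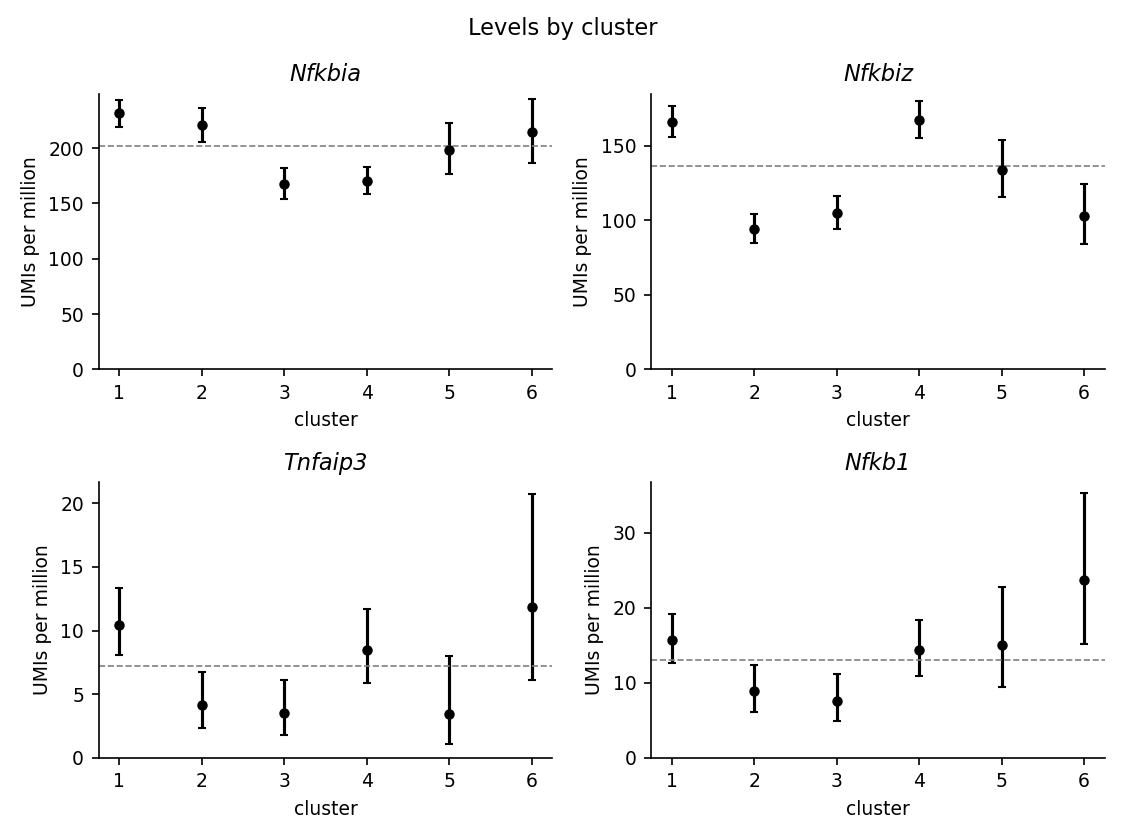
Levels of Nfkbia, Nfkbiz, Tnfaip3 and Nfkb1 in clusters 1 to 6, in CPM with 95% Poisson intervals. Each panel has its own axis from 0 and a dashed line at the level in all cells. Nfkbia stays between 167 and 231, Nfkbiz stands highest in clusters 1 and 4, and Nfkb1 stands highest in cluster 6 on 24 UMIs.

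Icam1 and Nfkb1 stood higher in cluster 6 than elsewhere. Icam1 was at 7.90 CPM there on 8 UMIs, 4.57-fold the other cells (1.83 to 10.1), and Nfkb1 at 23.7 CPM, 1.89-fold (1.19 to 2.89). The intervals of the other 5 sparse genes took in 1, among them Birc3 (2.70-fold on 4 UMIs) and Tnfaip3 (1.70-fold). The 4 genes named here were at least 1.5-fold higher and Nfkb2 (8 UMIs) at least 1.5-fold lower in cluster 6, against 20.9% and 17.1% of all genes. Its immediate early sum was 4224 CPM, against 7144 to 9635 CPM in the other clusters, and 62.9% of its cells were called S or G2/M. Without its cells, the levels in the library were 1.73 CPM for Icam1, 1.47 CPM for Birc3, 12.5 CPM for Nfkb1, 202 CPM for Nfkbia and 138 CPM for Nfkbiz. Relb was the flattest of the subunit genes, at 8.86 to 11.8 CPM over the 6 clusters, and Nfkb2 ranged from 7.90 to 15.7 CPM, highest in cluster 4 (1.46-fold, 1.08 to 1.94).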

How the data were processed

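Single cells of 1 untreated wild type organoid library were profiled by 3′ droplet sequencing. The deposited matrix holds raw UMI counts per gene and barcode, not normalized by the authors and written by Cell Ranger 6.1.2 per the submitters' processing notes. The build was GRCm38 (mm10), according to the series' design text. The counting annotation and strand setting are not given in the sources used here. Of 32285 gene identifiers 32158 were found in GENCODE M21.

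The 9 members and all lists were chosen with earlier results of these data known. Barcodes with fewer than 500 genes or over 20% mitochondrial UMIs were removed, and tag UMIs stayed out of all totals. No barcode was repeated. Scrublet marked 12 cells (0.634%, with 1.59% expected) as doublets, and these were kept in the main values and removed in an alternative. CPM carry exact Poisson intervals, shares Clopper-Pearson intervals and ratios conditional binomial intervals, all at 95%. Counts from amplified libraries cover counting error only in such intervals. Correlations used Pearson residuals of a depth model with overdispersion 100. Shares over all genes cover those with at least 100 UMIs, while all 9 members entered the correlations, Icam1 and Birc3 included. Clusters came from 2000 variable genes, 30 components, 15 neighbours and Leiden clustering at resolution 0.6 (scanpy 1.11.5, leidenalg 0.10.2, Python 3.11.15). Correlations with a sum of 9 genes and ratios between high and low groups of cells were tested on simulated data. Clustering, doublet calling, thinning and the motif search were not.

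Genes named were the 9 members, the 3 genes of each list highest in CPM and in r with the summed members, the 3 genes most like each member, the 10 most like the sum, the 5 leading genes of each cluster, markers and overlapping genes. Ccl20 and any other gene beyond these were chosen after their values were seen. Alternatives were other cell filters, doublets removed, each tag, other measures of correlation and other clusterings.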

Additional observations from a re-analysis of the deposited data

How the results depend on the processing

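No paired analysis was possible because all cells came from 1 library. Of the main values recomputed under alternatives 42 stayed close and 20 moved. Close means within 1.5 times and on the same side of 0.1 for r, within 1.5 times for a count, and within the counting interval of the main value for levels and cluster ratios. Of the other values 525 stayed close, 34 moved and 1 was counted as turned. This was Nfkb1 in cluster 1 over other cells, from 1.31-fold to 0.956-fold at resolution 0.3. A small r that changed sign was counted as close. An example is Nfkbia with Birc3, at 0.093 in all cells and -0.020 in the second tag's cells. The r of Nfkbia with Nfkbiz (0.36) was at least 0.1 in 11 of 11 alternatives, and those with Tnfaip3 in 9 of 11 each. Spearman's rho after thinning gave 0.13 for Nfkbia with Nfkbiz, 0.069 for Nfkbia with Tnfaip3 and 0.062 for Nfkbiz with Tnfaip3. With counting variance subtracted, the pairs of Tnfaip3 with Nfkbia and Nfkbiz were at 0.48 and 0.57. The next 3 alternatives were chosen after seeing the data. In the 1129 cells without a UMI of Cxcl1, Cxcl2, Cxcl5 or Tnf, which were shallower (median depth 7586 against 10635 UMIs), the values were 0.12, 0.067 and 0.079. Given the summed chemokine and immediate early residuals, Nfkbia with Nfkbiz was at 0.24 and Nfkbia with Tnfaip3 at 0.14. Without cluster 1, the pairs of Tnfaip3 with Nfkbia and Nfkbiz were at 0.12 each. Pairs with r of at least 0.1 numbered 3 in all cells, 1 by Spearman's rho, 1 in cells without those chemokine or Tnf UMIs, 5 in cells of at least median depth and 5 in the second tag's cells. Genes of all lists past the mark numbered 23 at r of 0.1, of which 8 were immediate early genes, and 40 at 0.05. The share of all genes past 0.05 is not given, so the count of 40 has nothing to be set against. Cluster ratios depended on the clustering. Nfkbia in cluster 1 was 1.36-fold with only the members left out (7 clusters), and Nfkbiz in cluster 1 was 1.02-fold at resolution 0.3 (3 clusters) and 1.15-fold at resolution 1.0 (9 clusters). The cause of these shifts was not tested. Depth limits the rarer genes, since Icam1 and Birc3 had 41 and 32 UMIs in all.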

Other observations

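Outside the 9 genes, Ccl5, a chemokine gene for T cells, had 115 UMIs in 5 cells, of which 106 lay in 1 cell. Ccl20 had 94 UMIs in 41 cells, and 77.7% of them lay in 20 cells. It had an r of 0.25 with the summed 9 genes, and Tnip3, which encodes a partner of the Tnfaip3 protein, had 84 UMIs and an r of 0.13, both below the 100 UMIs asked of listed genes.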
